A study of Danio rerio with 12 samples.

Results

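Vertebrate vision starts in the outer segments of rods and cones. An opsin that absorbs light activates the alpha subunit of the G protein transducin, which turns on the phosphodiesterase PDE6, and the fall in cyclic GMP closes cation channels in the outer segment membrane. Arrestin and opsin kinases then shut the opsin off. Rods, which serve dim light, use the transducin Gnat1, whereas cones, which serve bright light and colour, use their own opsins, Gnat2 and cone arrestins.

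The 5 genes described here are well-known members of this cascade. They were picked by their identifiers, with no measured value in the rule, but with earlier results of these data known. They were *opn1sw1* (ENSDARG00000045677, the ultraviolet cone opsin), *opn1sw2* (ENSDARG00000017274, the blue cone opsin), *gnat1* (ENSDARG00000044199, rod transducin alpha), *gnat2* (ENSDARG00000042529, cone transducin alpha) and *arr3a* (ENSDARG00000056511, a cone arrestin that in zebrafish belongs to red and green cones). All 5 were found among the 32271 features of the expression table. All 5 also passed the filter for testing, a mean of at least 0.5 FPKM (fragments scaled to transcript length and to the fragments mapped in a library) over the 12 libraries, which 21623 features passed.

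The study asked how loss of *zbtb24*, a zinc finger gene mutated in the immunodeficiency ICF syndrome, alters gene expression in zebrafish, and whether the RNA sensor Mda5 (gene *ifih1*) is needed for that response. Polyadenylated RNA was sequenced from pools of 10 larvae aged 3 weeks, in 3 pools for each of 4 genotypes. Double mutants carried both the *zbtb24* mk22 deletion, made with TALENs, and the *mda5* mk29 deletion, made with CRISPR. *zbtb24* mutants carried the first alone, *mda5* mutants the second alone, and wild-type (WT) larvae neither. All mutants were homozygous, and each gene was represented by a single allele. Nothing in the sources used here ties a pool to particular parents, so the p-values measure the spread between pools, which may be in part technical.

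The submitters name fin as the source of the RNA, while the description of the experiment speaks of whole larvae. Transcripts of the eye were listed above 0 in every library. *opn1sw1* ranked 551 of 32271 features by its mean, *opn1sw2* 918, *arr3a* 1290, *gnat1* 1696 and *gnat2* 2954. The neuron gene *elavl4* lay between 16.9 and 41.9 FPKM, and the liver gene *ftcd* between 14.0 and 81.9 FPKM, so transcripts of organs outside the fin were in all 12 libraries. Cdca7, a gene of the same ICF pathway, was at 0.0118 to 0.101 FPKM in the 6 libraries with the *zbtb24* mutation and at 2.53 to 3.48 FPKM in the 6 without it. *zbtb24* itself was at 1.06 to 1.74 FPKM with the mutation and at 0.348 to 0.587 FPKM without it. The value sums over the whole gene and does not isolate the deleted exons, so it does not check the deletion. By quantitative PCR on younger fish, the study reports no detectable *zbtb24* transcripts in homozygous mutants. Why the measures differ was not tested. *ifih1* was at 0.354 to 0.613 FPKM in the 6 libraries with the *mda5* mutation and at 0.732 to 1.87 FPKM in the 6 without it. The number of reads per library is not known from the values, so no counting interval is given.

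Of the 5 genes, *gnat1* was the one that passed a test, and it was lower wherever *zbtb24* was mutated. As a fold change it was 0.277 times the WT level in *zbtb24* mutants and 0.379 times the *mda5* mutant level in double mutants, of which the first passed the test. The 4 cone genes did not pass in any of the 7 comparisons. Of 10 other rod features, 3 fell in *zbtb24* mutants against WT (background 6.65% lower), among them a phosphodiesterase and a channel gene. In double mutants against *mda5* mutants 0 of 10 were called (background 0.134%). There 8 of 10 had an unadjusted p under 0.05, as did 2654 of all 21623 features tested.

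The ultraviolet opsin gene *opn1sw1* had the highest level of the 5 in all 12 libraries. It measured 205, 276 and 90.9 FPKM in double mutants, 114, 105 and 200 FPKM in *zbtb24* mutants, 183, 252 and 101 FPKM in *mda5* mutants, against 147, 118 and 73.4 FPKM in WT larvae. The 4 genotypes overlapped, and the highest library of a genotype held 1.91 to 3.03 times the lowest. *zbtb24* mutant replicate 3 was the highest of its genotype for this gene and the lowest for *gnat1*. The log2 change, here always a difference of log2(FPKM + 0.5), was 0.30 ± 0.46 (SE) in *zbtb24* mutants against WT (limma, n = 3 each, Benjamini-Hochberg adjusted p = 0.683). Its 95% interval ran from −0.71 to 1.32, so neither a fall nor a rise within that range was excluded. In double mutants against *mda5* mutants the change was 0.05 ± 0.46 (adjusted p = 0.982).

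The blue opsin gene *opn1sw2* measured 118, 123 and 43.6 FPKM in double mutants, 68.9, 52.6 and 69.0 FPKM in *zbtb24* mutants, 98.1, 131 and 80.7 FPKM in *mda5* mutants, against 88.8, 68.0 and 63.7 FPKM in WT larvae. The double mutants held the lowest of the 12 values and 2 of the 3 highest, and each genotype overlapped the one it was compared with. The change was −0.21 ± 0.35 in *zbtb24* mutants against WT (limma adjusted p = 0.721) and −0.24 ± 0.35 in double mutants against *mda5* mutants (adjusted p = 0.816). *opn1sw1* was above *opn1sw2* within each of the 12 libraries, by a ratio of 2.1 ± 0.447 in the 6 libraries with the *zbtb24* mutation and 1.60 ± 0.320 in the 6 others (SD, n = 6 each).

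Gnat1 switches on the phosphodiesterase of rods. *gnat1* measured 29.9, 30.6 and 15.0 FPKM in double mutants, 19.9, 21.3 and 10.9 FPKM in *zbtb24* mutants, 50.6, 68.0 and 76.1 FPKM in *mda5* mutants, against 52.1, 68.0 and 66.0 FPKM in WT larvae. All 6 libraries with the *zbtb24* mutation, at 30.6 FPKM or less, lay below all 6 libraries without it, at 50.6 FPKM or more. A separation of that kind and direction was found for 1.21% of the features tested. The change was −1.85 ± 0.31 in *zbtb24* mutants against WT, with a 95% interval from −2.54 to −1.17 (limma adjusted p = 0.0111). In that comparison 6.65% of the features tested were called lower and 4.92% higher.

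In double mutants against *mda5* mutants *gnat1* changed by −1.40 ± 0.31, with a 95% interval from −2.08 to −0.71 and an unadjusted p of 0.000977. This did not pass after adjustment (limma adjusted p = 0.136), in a comparison where 0.134% of the features tested were called. Averaged over both *mda5* genotypes, the change with *zbtb24* mutation was −1.63 ± 0.22 (limma adjusted p = 0.00525), against a background of 1.72% of features called lower and 1.80% called higher. The difference between the 2 *zbtb24* effects was 0.45 ± 0.44, with a 95% interval from −0.52 to 1.42 (adjusted p = 0.542), so an unequal effect was not shown. That interaction called 0 of the features tested with limma (0%), of which 5434 had an unadjusted p under 0.05. In double mutants against WT, which share the WT libraries with the first comparison, *gnat1* changed by −1.34 ± 0.31 (adjusted p = 0.122), where 0.402% of features were called. The *zbtb24* mutant call ended without WT replicate 3, with a change of −1.80 and a limma adjusted p of 0.0525. In that fit 0.56% of all features were called lower. Without *zbtb24* mutant replicate 3 and double mutant replicate 3, an alternative chosen after seeing the data, the change in *zbtb24* mutants against WT was −1.56 (adjusted p = 0.0105). In a bulk sample, fewer rods and less *gnat1* RNA per rod cannot be told apart. The study reports *zbtb24* mutants to be smaller than wild-type siblings from about the age sampled here. Whether body size has a part in these values was not tested.

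**Figure D1:**
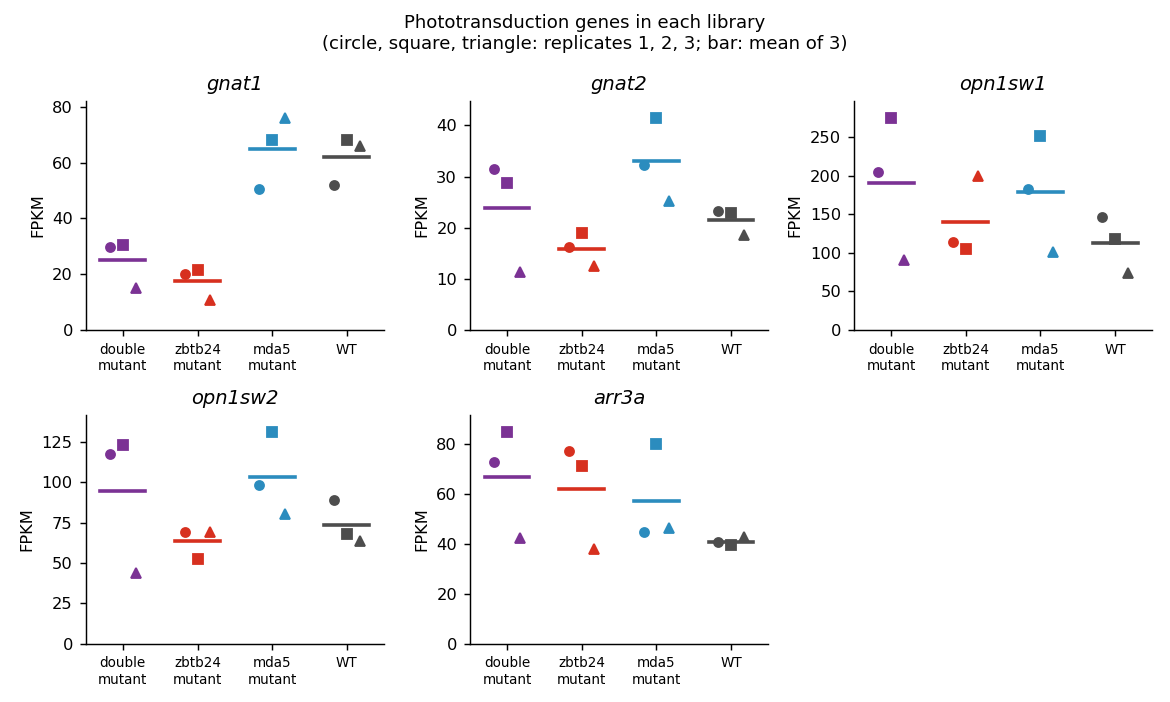
FPKM of the 5 genes (vertical axis, from 0) in each of the 12 libraries by genotype. Circles, squares and triangles are replicates 1, 2 and 3, which are separate pools, and bars are means of 3. For *gnat1* all libraries with the *zbtb24* mutation sit at 30.6 FPKM or less and all others at 50.6 FPKM or more, and the other 4 genes overlap.

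The cone partner *gnat2* measured 31.6, 28.7 and 11.3 FPKM in double mutants, 16.2, 19.0 and 12.5 FPKM in *zbtb24* mutants, 32.2, 41.5 and 25.2 FPKM in *mda5* mutants, against 23.3, 22.9 and 18.6 FPKM in WT larvae. All 3 *mda5* mutant libraries exceeded all 3 WT libraries, while *zbtb24* mutants and WT overlapped by 1 library. The change was −0.44 ± 0.34 in *zbtb24* mutants against WT (limma adjusted p = 0.397) and −0.56 ± 0.34 in double mutants against *mda5* mutants (adjusted p = 0.529). The interval of the first, from −1.19 to 0.31, reaches a fall of more than 1 log2 unit, so a decrease of *gnat2* is not excluded by these data.

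The cone arrestin gene *arr3a* measured 72.7, 84.9 and 42.4 FPKM in double mutants, 77.1, 71.3 and 37.8 FPKM in *zbtb24* mutants, 44.8, 79.9 and 46.4 FPKM in *mda5* mutants, against 40.5, 39.5 and 42.6 FPKM in WT larvae. WT libraries were nearly equal, with a coefficient of variation of 3.84%, against 32.9% to 34.7% in the mutant genotypes. Its change of 0.53 ± 0.33 in *zbtb24* mutants against WT was of opposite sign to that of *gnat1* and did not pass the test (limma adjusted p = 0.287). Its change was 0.22 ± 0.33 in double mutants against *mda5* mutants (adjusted p = 0.820), and in double mutants against WT it was 0.64 ± 0.33 (adjusted p = 0.486).

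**Figure D2:**
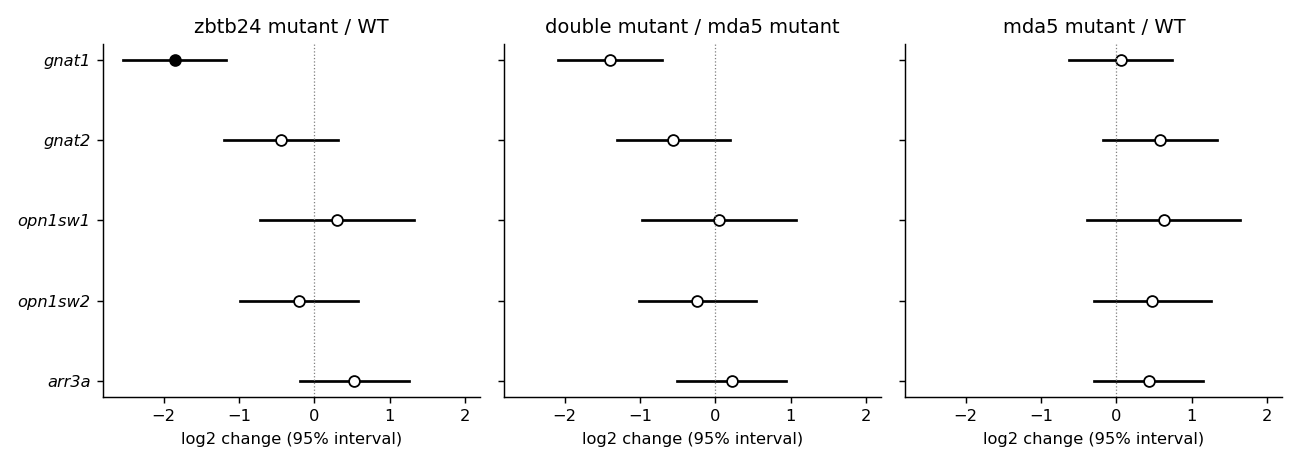
Log2 change of each of the 5 genes (horizontal axis, difference of log2(FPKM + 0.5)) in 3 comparisons, with 95% intervals from limma; filled points have an adjusted p under 0.05. *gnat1* in *zbtb24* mutants against WT, at −1.85, is the filled point, and the interval of *gnat1* also leaves out 0 in double mutants against *mda5* mutants.

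The order of the 5 levels showed the same change of *gnat1*. FPKM is given per length of transcript, so levels of different genes can be set side by side. In WT larvae the means were 113 ± 36.9 FPKM for *opn1sw1*, 73.5 ± 13.5 for *opn1sw2*, 62.1 ± 8.66 for *gnat1*, 40.9 ± 1.57 for *arr3a* and 21.6 ± 2.62 for *gnat2* (SD, n = 3 libraries). The WT ranges of *opn1sw1* and *opn1sw2* overlapped, though *opn1sw1* was the higher within each of the 12 libraries. Those of *opn1sw2* and *gnat1* overlapped as well. *opn1sw2* was the higher of that pair in WT replicate 1 and *gnat1* in WT replicate 3, so their order was not separated. In *zbtb24* mutants *gnat1* averaged 17.4 ± 5.67 FPKM, next to *gnat2* at 15.9 ± 3.26 FPKM, and *arr3a* stood above both at 62.1 ± 21.2 FPKM. In double mutants *gnat1* at 25.2 ± 8.80 FPKM and *gnat2* at 23.9 ± 11 FPKM overlapped as well. *mda5* mutants kept the WT order of means, with *gnat1* at 64.9 ± 13.0 FPKM and *gnat2* at 33.0 ± 8.18 FPKM.

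The *gnat1* level set against *gnat2* within a library split the libraries by *zbtb24* mutation, as *gnat1* alone did. It was 0.946 to 1.33 in double mutants, 0.870 to 1.23 in *zbtb24* mutants, 1.57 to 3.02 in *mda5* mutants and 2.24 to 3.55 in WT larvae. The 6 libraries with the *zbtb24* mutation averaged 1.09 ± 0.171 and the 6 others 2.5 ± 0.809 (SD), without overlap. Replicate 3 of both *zbtb24* genotypes, the lowest of its genotype for *gnat1*, was the highest in double mutants and the lowest in *zbtb24* mutants by this ratio. The ratio of *arr3a* to *gnat2* ran the other way, at 2.30 to 4.75 in the 6 libraries with the *zbtb24* mutation and 1.39 to 2.29 in the 6 without it. The ratios were formed after the values were seen and are given as a description.

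**Figure D3:**
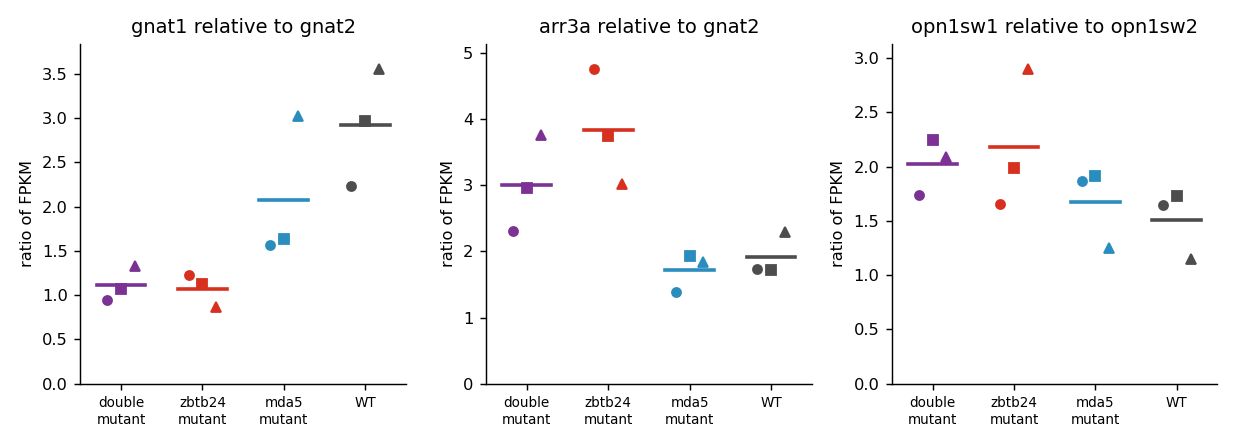
Ratios of FPKM within a library (vertical axes, from 0) by genotype, with *gnat1* over *gnat2*, *arr3a* over *gnat2* and *opn1sw1* over *opn1sw2*; marks and bars as for the gene levels by library. *gnat1* is at 0.870 to 1.33 times *gnat2* in the 6 libraries with the *zbtb24* mutation and at 1.57 to 3.55 times in the 6 others.

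Mutation of *mda5* left the 5 genes without a call. In *mda5* mutants against WT all 5 changes were above 0, between 0.05 for *gnat1* and 0.62 for *opn1sw1*. Of the 5, 0 were called by limma, against 0.00462% of all features called. At an unadjusted p under 0.05 there were 0 of 5, against 2934 of all 21623 features tested. The libraries of *gnat2* and *arr3a* did not overlap, with all 3 *mda5* mutants above all 3 WT, as was the case for 7.7% of all features tested. Double mutants against *zbtb24* mutants likewise gave 5 changes above 0, from 0.11 for *arr3a* to 0.51 for *gnat1*. There 0 of 5 were called, where 0.00462% of features were called. At an unadjusted p under 0.05 there were 0 of 5, against 3109 of all 21623 features tested. For *gnat1* the interval of that difference ran from −0.18 to 1.19 (adjusted p = 0.440).

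The 5 genes did not move as 1 block across the 12 libraries. Over log2 values, *opn1sw2* and *gnat2* had a Pearson r of 0.87, *opn1sw1* and *opn1sw2* of 0.82 and *gnat1* and *gnat2* of 0.69 (n = 12). *gnat1* had an r of −0.10 with *arr3a* and of −0.07 with *opn1sw1*. These values describe the same 12 pools and include the differences between genotypes. The features most like the mean of the 5, each centred on its own mean, were *cyp11c1*, a steroid hydroxylase gene, with a root mean square difference of 0.134 log2 units, *gnb3b*, a cone transducin beta gene, with 0.154, and *syt5a*, a synaptotagmin gene, with 0.166.

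Looked up for each gene, a choice made after the values were seen, the nearest features of *gnat1*, *gnat2* and *arr3a* were other photoreceptor genes, and those of *opn1sw1* and *opn1sw2* were *zgc:193593* and *cyp11c1*. *gnat2* was nearest to *gnb3b* as well, with a difference of 0.159. *arr3a* was nearest to *RCVRN* (ENSDARG00000009637), of the recoverin family, with 0.157. *gnat1* was nearest to *PDC* (ENSDARG00000011886), the gene of phosducin, which binds transducin beta and gamma in photoreceptors, with 0.242. *PDC* was picked for this likeness, so its values, 1.03 to 3.42 FPKM in the 6 libraries with the *zbtb24* mutation and 4.08 to 7.01 FPKM in the 6 others, are a description.

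Other rod genes of a list of 9 symbols gave 10 features, all tested, named here as the gene table names them. In *zbtb24* mutants against WT 3 of 10 fell and 0 rose (background 6.65% lower), with a median log2 change of −0.65 against 0.00 over all features. They were *PDE6B* (ENSDARG00000000380), a catalytic subunit of rod phosphodiesterase, *CNGA1* (ENSDARG00000012125), a subunit of the rod channel, and *rcvrna*, of the recoverin family, which holds back opsin kinase. *PDE6B* measured 4.08, 4.67 and 3.18 FPKM in double mutants, 3.21, 2.92 and 2.31 FPKM in *zbtb24* mutants, 6.37, 8.66 and 9.07 FPKM in *mda5* mutants, against 5.23, 9.29 and 7.83 FPKM in WT larvae. All 6 libraries with the *zbtb24* mutation were below the rest, and the change in *zbtb24* mutants was −1.24 ± 0.21 (limma adjusted p = 0.0126). Such a separation was found for 2 of the 10 rod features and for 1.21% of all features tested. *CNGA1* changed by −0.81 ± 0.18 (adjusted p = 0.0251) and *rcvrna* by −0.88 ± 0.25 (adjusted p = 0.0451). With each of the 12 libraries left out in turn, the *PDE6B* call held 11 times, that of *CNGA1* 9 times and that of *rcvrna* 2 times.

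Of the 10 rod features, 0 were called by limma in double mutants against *mda5* mutants (background 0.134%). At an unadjusted p under 0.05 there were 8 of 10, against 2654 of all 21623 features tested. All 10 of these changes were below 0, with a median of −0.87 against 0.02 over all features. In *mda5* mutants against WT all 10 were above 0, with a median of 0.44 against −0.02 over all features. There 0 of 10 were called by limma (background 0.00462%). At an unadjusted p under 0.05 there were 4 of 10, against 2934 of all 21623 features tested. The *mda5* mutant and WT libraries both enter the average that follows. Averaged over both *mda5* genotypes, 5 of the 10 rod features fell and 0 rose (background 1.72% lower), with a median of −0.79 against 0.01 over all features. A second *PDE6B* feature (ENSDARG00000011671) and *GRK1*, an opsin kinase, joined the others, with changes of −0.91 ± 0.17 and −0.96 ± 0.18 (limma adjusted p = 0.0209 and 0.0178). The averaged calls of *PDE6B* (ENSDARG00000000380), *CNGA1* (ENSDARG00000012125) and *rcvrna* held under all 12 omissions. All 10 averaged changes were below 0, from −1.08 to −0.25. The rod arrestin gene *sagb* was at 24.4 to 73.6 FPKM with the *zbtb24* mutation and 49.6 to 74.9 FPKM without it and did not pass. The count for *zbtb24* mutants against WT was 1 of 10 without *zbtb24* mutant replicate 2 or without replicate 3. In those fits 2.28% and 3.24% of all features were called lower. It was 0 of 10 without WT replicate 3 and 0 of 10 when the 6 libraries of the compared genotypes were fitted alone. There the share of all features was 0.56% and 0.541%, and the rod median was −0.63 and −0.65. The averaged count lay between 3 and 5 when any 1 library was left out. It was 3 without WT replicate 3 (0.786% of all features lower) or without *mda5* mutant replicate 3 (0.86%).

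**Figure D4:**
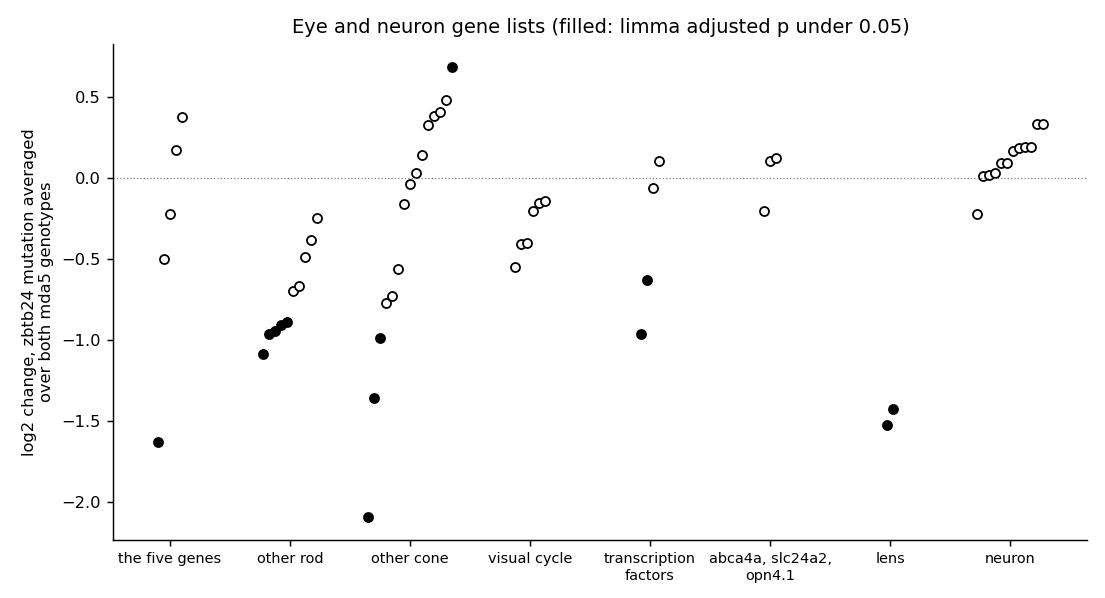
Log2 change with *zbtb24* mutation, averaged over both *mda5* genotypes (vertical axis), of every tested gene of each list (horizontal axis, genes ordered by their change within a list); filled points have a limma adjusted p under 0.05. The 10 other rod genes all lie below 0, the cone genes lie on both sides, and the neuron genes lie near 0. For the neuron genes this average joins changes above 0 with Mda5 present and below 0 without it.

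Cone genes were mixed. The 15 cone symbols gave 17 features, of which 15 were tested. In *zbtb24* mutants against WT 3 of 15 fell and 1 rose (background 6.65% and 4.92%), with a median of 0.05. Averaged over both *mda5* genotypes the counts were again 3 and 1 (background 1.72% and 1.80%), with a median of −0.04. The green opsin genes *opn1mw1* and *opn1mw3* fell in *zbtb24* mutants, by 1.5 ± 0.40 and 2.71 ± 0.65 on the log2 scale (limma adjusted p = 0.0409 and 0.0292). *opn1mw1* measured 30.5, 79.5 and 24 FPKM in double mutants, 32.7, 16.2 and 33.9 FPKM in *zbtb24* mutants, 90.6, 108 and 76.3 FPKM in *mda5* mutants, against 79.9, 81.1 and 65.2 FPKM in WT larvae. Double mutant replicate 2 lay among the libraries without the *zbtb24* mutation, and the other 5 mutated libraries lay below them. The tandem green opsin *opn1mw2* did not follow, at 21.1 to 119 FPKM with the mutation and 35.9 to 58.4 FPKM without it (change 0.05 ± 0.44, adjusted p = 0.955). The tandem green and red opsin copies are alike in sequence, and how reads were split between them is uncertain.

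The third cone feature that fell was *GNGT2* (ENSDARG00000010680), a cone transducin gamma gene, with a change of −1.1 ± 0.28 (limma adjusted p = 0.0351). A second *GNGT2* feature (ENSDARG00000103543) did not pass in *zbtb24* mutants against WT or in the average. It was at 95.1 to 207 FPKM with the *zbtb24* mutation and 179 to 340 FPKM without it. The cone phosphodiesterase subunit gene *pde6ha* rose by 1.01 ± 0.23 (adjusted p = 0.0257). It measured 269, 274 and 165 FPKM in double mutants, 271, 262 and 175 FPKM in *zbtb24* mutants, 157, 206 and 175 FPKM in *mda5* mutants, against 99.6, 130 and 117 FPKM in WT larvae. All *zbtb24* mutants exceeded all WT libraries, while double mutants and *mda5* mutants overlapped. The red opsin gene *opn1lw2*, at 101 to 212 FPKM with the *zbtb24* mutation and 87.2 to 171 FPKM without it, did not pass. In *zbtb24* mutants against WT 0 of 15 cone features were called lower without any single one of *zbtb24* mutant replicate 2 or 3 or WT replicate 1 or 3. In those fits 2.28%, 3.24%, 2.65% and 0.56% of all features were called lower. The *pde6ha* call ended without *zbtb24* mutant replicate 1 or 2 or WT replicate 1 or 3. Both counts were 0 with the 6 compared libraries alone, where 0.541% of all features were called lower. Averaged over *mda5* genotypes, 0 of 15 were called lower without any single one of *zbtb24* mutant replicate 2, *mda5* mutant replicate 2 or 3, or WT replicate 2 or 3. In those fits 0.786% to 1.43% of all features were called lower. The averaged *pde6ha* call ended under 10 of the 12 omissions, the exceptions being replicate 3 of the double and *zbtb24* mutants.

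Of 4 features for transcription factors of photoreceptors, 1 fell in *zbtb24* mutants (background 6.65% lower), 1 fell in double mutants against *mda5* mutants (background 0.134% called) and 2 fell in the average (background 1.72% lower), and both that fell are factors of rods. *NR2E3*, a nuclear receptor of rods, measured 6.91, 8.75 and 3.89 FPKM in double mutants, 6.53, 5.74 and 4.50 FPKM in *zbtb24* mutants, 11.9, 14.6 and 14.0 FPKM in *mda5* mutants, against 9.35, 11.7 and 10.7 FPKM in WT larvae. It was lower in all 6 libraries with the *zbtb24* mutation than in any other, with a change of −0.87 ± 0.24 in *zbtb24* mutants (limma adjusted p = 0.0422) and of −0.96 ± 0.17 averaged (adjusted p = 0.0144). Of the 4 features 2 separated in this way, against 1.21% of all features tested. *nrl*, the leucine zipper factor of rods, was at 0.335 to 0.544 FPKM with the mutation and at 0.656 to 1.17 FPKM without it. It changed by −0.83 ± 0.13 in double mutants against *mda5* mutants (adjusted p = 0.0445) and by −0.63 ± 0.09 averaged (adjusted p = 0.00671), at a level near the filter, and with a filter of 1 FPKM it was not tested. The *NR2E3* call in *zbtb24* mutants ended under 9 of the 12 single omissions, the exceptions being double mutant replicates 2 and 3 and *zbtb24* mutant replicate 1, and the *nrl* call in double mutants ended under 11, while both averaged calls held under all 12. The 2 features named for *crx*, the factor shared by rods and cones, did not pass, with averaged changes of −0.06 and 0.10.

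The visual cycle returns the light-sensitive form of retinal to the opsins, largely in the pigment epithelium and glia. Of its 6 tested features, 0 fell and 0 rose by limma in *zbtb24* mutants against WT (background 6.65% lower and 4.92% higher). The average over both *mda5* genotypes gave the same counts (background 1.72% and 1.80%). At an unadjusted p under 0.05 there were 2 and then 1 of 6, against 6793 and then 4625 of all 21623 features tested. All 6 averaged changes were below 0, with a median of −0.30 against 0.01 over all features. *RPE65* (ENSDARG00000007480), the isomerase of the pigment epithelium, was at 22.5 to 57.7 FPKM with the *zbtb24* mutation and 33.6 to 73.4 FPKM without it, with an averaged change of −0.41 ± 0.23 (adjusted p = 0.345). *rlbp1a*, the gene of a retinal-binding protein, had a change of −0.92 ± 0.30 in *zbtb24* mutants (adjusted p = 0.0654).

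The study's list of regions with altered methylation came from fins of adult *zbtb24* mutants and wild-type siblings, not from larvae. It gave 3 more genes of vision, as well as the neuron and organ genes below. Of these 3 vision genes, 0 were called by limma in any comparison. The background ran from 0% in the interaction to 6.65% lower and 4.92% higher in *zbtb24* mutants against WT. At an unadjusted p under 0.05 there were 3 of 3 in *mda5* mutants against WT, and 2 of 3 both in *zbtb24* mutants against WT and in the interaction. Of all 21623 features tested, 2934, 6793 and 5434 had such a p. Double mutants had 1 of 3 against *mda5* mutants and 1 of 3 against WT, and the remaining comparisons had 0 of 3. *abca4a*, a retinal transporter of outer segments, measured 1.79 to 2.86 FPKM with the *zbtb24* mutation and 1.99 to 3.92 FPKM without it, with an averaged change of −0.20 ± 0.13. *slc24a2*, a sodium and calcium exchanger of cones, measured 8.66 to 11.9 FPKM in *zbtb24* mutants and 6.15 to 7.80 FPKM in WT larvae (0.57 ± 0.23, limma adjusted p = 0.115). The melanopsin gene *opn4.1* measured 4.78 to 5.84 FPKM in *zbtb24* mutants and 2.79 to 4.05 FPKM in WT larvae (0.60 ± 0.21, adjusted p = 0.0865). In *zbtb24* mutants both lay wholly above WT, as 15.6% of all features did. In *mda5* mutants all 3 genes lay wholly above WT, as 7.7% of all features did. There *slc24a2* was at 11.3 to 13.0 FPKM and *opn4.1* had a mean of 6.76 FPKM. All 3 changes were below 0 in double mutants against *mda5* mutants, from −0.42 to −0.32.

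Transcripts of other tissues differed between the same libraries, and their part in the rod values was not tested. In the lens list both genes fell in *zbtb24* mutants (background 6.65% lower). In double mutants against *mda5* mutants 0 of 2 were called by limma (background 0.134%), and the median was −1.57. There both had an unadjusted p under 0.05, as did 2654 of all 21623 features tested. *CRYAA*, a crystallin that is a main protein of lens fibres, measured 9.73, 24.8 and 27.8 FPKM in double mutants, 21.1, 30.3 and 46.0 FPKM in *zbtb24* mutants, 56.8, 64.9 and 55.9 FPKM in *mda5* mutants, against 107, 68.4 and 81.4 FPKM in WT larvae. No library with the *zbtb24* mutation reached the lowest without it, and the averaged change was −1.52 ± 0.26 (limma adjusted p = 0.0142), with −1.43 ± 0.25 for *cryba1b* (adjusted p = 0.0152). Both lens genes separated in this way, against 1.21% of all features tested. Both averaged calls held under every alternative. In *zbtb24* mutants against WT, however, 0 of 2 were called after quantile normalization, with no filter or with the compared libraries alone. There 5.59%, 4.32% and 0.541% of all features were called lower. The count was also 0 of 2 under 8 of the 12 single omissions, where that share ran from 0.56% to 6.07%.

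The neuron list had 1 call in *zbtb24* mutants against WT. Its 12 genes, all tested and none listed at 0 in any library, summed to 41.2 to 80.8 FPKM in double mutants, 84.1 to 92.4 FPKM in *zbtb24* mutants, 68.6 to 82.4 FPKM in *mda5* mutants, against 38.1 to 79.5 FPKM in WT larvae. All 12 changes were above 0 in *zbtb24* mutants against WT, with a median of 0.61, and 1 passed (background 4.92% higher), *gabbr1b* at 1.1 ± 0.31 (limma adjusted p = 0.0449), a receptor gene for the transmitter GABA. The count depended on WT replicate 2, whose neuron sum of 79.5 FPKM stood apart from 38.1 and 39.2 FPKM in the other WT libraries. Without it 9 of 12 rose, without double mutant replicate 3 it was 3 of 12, and under the other 10 single omissions 0 of 12. In those fits 7.22%, 5.96% and 0.56% to 6.07% of all features were called lower. The share called higher was not worked out for them, so these counts have no matching background. In *mda5* mutants against WT all 12 were above 0 as well, with a median of 0.48, and in double mutants against *mda5* mutants all 12 were below 0, with a median of −0.43. In both of these 0 of 12 were called by limma, with 3 and then 2 of 12 at an unadjusted p under 0.05. Of all 21623 features tested, 2934 and then 2654 had such a p. Averaged, the neuron median was 0.13, against −0.79 for the rod features, but the neuron value joins changes of opposite sign. In the interaction all 12 neuron changes were below 0, with a median of −1.03. There 0 of 12 were called by limma (background 0%). At an unadjusted p under 0.05 there were 10 of 12, against 5434 of all 21623 features tested. The neuron genes were also drawn from the list of altered methylation. Of 3 tested genes from other organs, 2 fell in *zbtb24* mutants (background 6.65% lower), *ompb* of olfactory neurons (−0.998 ± 0.206, adjusted p = 0.02) and *ftcd* of the liver (−1.44 ± 0.32, adjusted p = 0.0245). Of the 3, 0 were called by limma and 0 had an unadjusted p under 0.05 in double mutants against *mda5* mutants, and 2 of 3 changes were above 0, among them *ftcd* at 0.06 ± 0.32. Averaged over both *mda5* genotypes, 1 of the 3 organ genes fell and 0 rose by limma (background 1.72% lower). All 3 averaged changes were below 0, with a median of −0.69. At an unadjusted p under 0.05 there were 2 of 3, against 4625 of all 21623 features tested.

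**Figure D5:**
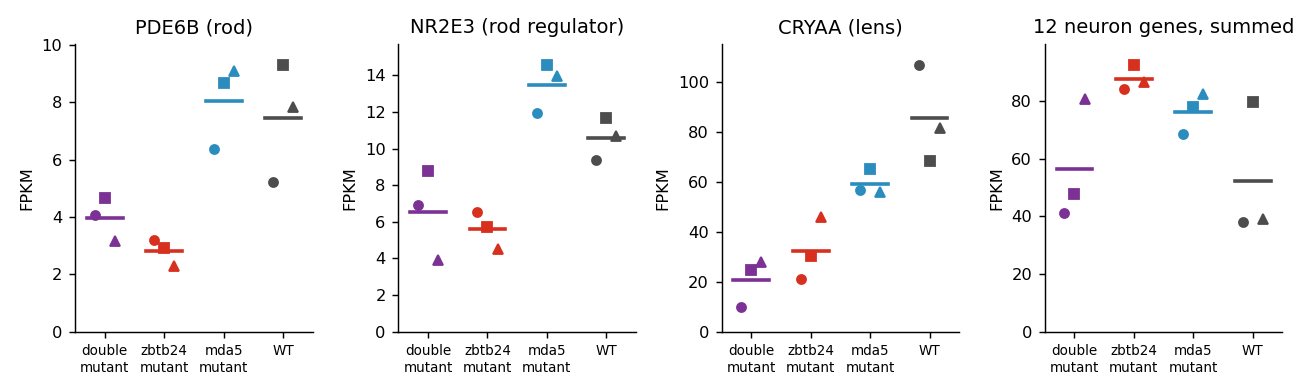
FPKM (vertical axes, from 0) of a rod phosphodiesterase gene (*PDE6B*, ENSDARG00000000380), the rod factor *NR2E3*, the lens gene *CRYAA* and the sum over 12 neuron genes in each library by genotype; marks and bars as for the gene levels by library. The first 3 are lower in all 6 libraries with the *zbtb24* mutation than in the 6 others, and the neuron sum is 84.1 to 92.4 FPKM in *zbtb24* mutants and 38.1 to 79.5 FPKM in WT larvae. Of all features tested 1.21% were lower in this way, and of the 10 other rod features 2 were.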

How the data were processed

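RNA was sequenced as paired-end, stranded, polyA-selected libraries. Per the submitters' notes and the study's methods, the authors trimmed reads with Trimmomatic 0.33, aligned them to GRCz10 with TopHat2 2.1.1 and deposited 1 table of FPKM values per gene, normalized across libraries with Cuffnorm of Cufflinks 2.2.1. No counts were used here, read depth cannot be read from the values, and 0 columns lacked a sample. Summed FPKM differed by genotype, at 1.03e+07 to 1.22e+07 in WT libraries and 5.81e+06 to 9.57e+06 in the mutant libraries. In *mda5* mutants it was 5.81e+06 to 7.56e+06. Its part in the changes against WT was not tested beyond the quantile normalization named below. The 32271 features were matched to gene symbols for 26418. Symbols of the lists with no exact match were matched without their final a or b; pde6a, otx5 and crygn2 found no match.

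FPKM values were tested as log2(FPKM + 0.5) with limma 3.58.1 in R 4.3.3 (a mean for each of 4 genotypes, a trended prior, two-sided), leaving out features that averaged under 0.5 FPKM, with Benjamini-Hochberg adjustment over all 21623 and a threshold of 0.05. A change on this scale understates that of low genes. There were 7 contrasts, among them the interaction and the *zbtb24* effect averaged over both *mda5* genotypes. The fit was tested on simulated data. Alternatives were other pseudocounts and filters, quantile normalization, no trend, a replicate block, only the compared genotypes and leaving out libraries. The text names the 5 genes in each comparison; 1 further gene of the cascade is not reported here. It also names called genes of each list, and the 3 features most like the mean of the 5. Members and lists were chosen with earlier results of these data known.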

Additional observations from a re-analysis of the deposited data

How the results depend on the processing

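The averaged *zbtb24* call of *gnat1* held under all 20 alternatives, with changes from −1.71 to −1.31 and adjusted p from 0.0037 to 0.0205. The call in *zbtb24* mutants against WT held under 20 of 21, with changes from −2.02 to −1.56, so the number of the 5 genes called ran from 0 to 1 when libraries were left out. Samples sharing a replicate number came from different pools, and their deviations had correlations of −0.125 to 0.167. Those of differently numbered libraries were not set beside them, so a pairing by number was neither shown nor excluded. With a replicate block the count stayed at 1 in that comparison and at 1 averaged (*gnat1* adjusted p 0.0198 and 0.00941), and it changed no other call of the 5 genes, while features called in *zbtb24* mutants against WT numbered 1578 with the block and 2502 without it. Changes that were not called crossed 0 in some settings. Quantile normalization gave −0.0321 for *opn1sw1* in double mutants against *mda5* mutants. Leaving out libraries gave ranges of −0.32 to 0.51 for *opn1sw1* and −0.50 to 0.25 for *opn1sw2* in double mutants against *mda5* mutants, −0.0697 to 0.22 for *gnat1* in *mda5* mutants against WT, and −0.21 to 0.40 for *arr3a* in double mutants against *zbtb24* mutants. In double mutants against WT they were −0.24 to 0.48 for *gnat2* and −0.0201 to 0.72 for *opn1sw2*. Interactions ranged from −0.38 to 0.34 for *gnat2*, −0.62 to 0.49 for *opn1sw1* and −0.29 to 0.52 for *opn1sw2*, and averaged changes from −0.00683 to 0.40 for *opn1sw1* and −0.35 to 0.0207 for *opn1sw2*. The cause was not tested. With 3 pools per genotype, the 95% intervals of the 5 genes in single comparisons reach more than 0.6 log2 units either side of the estimate.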

Other observations

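Further families of the outer segment and lens were looked up after the values were seen, by their symbols. The rim proteins peripherin-2 and Rom1 shape outer segment discs. Of their 6 tested genes, 2 fell with *zbtb24* mutation averaged over both *mda5* genotypes and 0 rose, where 1.72% of all features fell and 1.80% rose. In double mutants against *mda5* mutants 0 of 6 were called by limma (background 0.134%). There 4 of 6 had an unadjusted p under 0.05, as did 2654 of all 21623 features tested. The changes that follow are averaged over both *mda5* genotypes. *rom1a* was at 3.30 to 7.04 FPKM with the mutation and 7.24 to 14.7 FPKM without it, with a change of −0.98 ± 0.17 (limma adjusted p = 0.0158), and *ROM1* (ENSDARG00000026926) changed by −0.96 ± 0.17 (adjusted p = 0.0143). Of the 6 genes 3 had all mutated libraries below all others, as did 1.21% of all features tested. Of 8 tested genes for guanylate cyclases and their activators, which restore cyclic GMP after light, 1 fell in that average (background 1.72% lower), *GUCA1B*, by 1.04 ± 0.24 on the log2 scale (adjusted p = 0.0437).

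Of 51 tested lens crystallin genes, 34 fell and 1 rose with *zbtb24* mutation averaged over both *mda5* genotypes, with a median log2 change of −1.43, where 1.72% of all features fell and 1.80% rose. The 52 crystallin genes in the table summed to 2036 to 5326 FPKM in double mutants, 4455 to 5782 FPKM in *zbtb24* mutants, 10643 to 13233 FPKM in *mda5* mutants and 11125 to 19673 FPKM in WT larvae. The member that rose in the average was *CRYGS* (ENSDARG00000042992), by 2.30 on the log2 scale. In double mutants against *mda5* mutants 6 of the 51 fell and 1 rose by limma (background 0.134% called), with a median of −1.59. The 51 include *CRYAA* and *cryba1b*, the lens genes described above. Many crystallin genes lie in tandem with similar sequence, so how reads were split among them is uncertain.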
